A study of Mus musculus with 272 samples.

Results

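Kinesins are the motor proteins that step along microtubules. Spindle and chromosome kinesins separate microtubules, move chromosomes, shorten microtubule ends or organise the midzone where a cell divides, whereas transport kinesins carry vesicles, organelles and RNA. In the mouse, oocyte maturation and cleavage run on stored maternal RNA until the embryo transcribes its own genes, and cytoplasmic polyadenylation of stored RNA is a known switch of translation in maturing oocytes. The kinesin rows were taken as all symbols that begin with Kif followed by a digit or the letter c, which gave 40 of the 15771 gene symbols. By textbook role 14 were spindle or cytokinesis motors (the mitotic kinesins), 13 were cargo motors (the transport kinesins), and 13 were others. The others include the opposite-strand RNA Kif16bos and the pseudogene Kifc5c-ps. Kif1a, Kif2b and Kif5a were not analysed here.

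The samples were germinal vesicle (GV) oocytes, metaphase II (MII) oocytes, zygotes, 2-cell (2C), 4-cell (4C) and 8-cell (8C) embryos, morulae and blastocysts of the mouse, none of them given a treatment other than the cycloheximide of the lysis buffer. Each stage had 4 transcriptome libraries, each from 20 pooled oocytes or embryos, and 3 gradients, in which the lysate of about 100 oocytes or embryos was spun through sucrose and split into 10 fractions. Strain, age and genotype are not given in the sources used here, and the labels do not say that replicates came from separate collections, so p-values measure only the spread between these samples, which may be technical. Pooled embryos are bulk samples, in which fewer cells of a type and less RNA per cell cannot be told apart. Values are CPM, the reads of a gene scaled to a fixed total per library. The libraries were made from poly(A) RNA, so a rise or fall is a change in a share of the captured RNA. Amounts of RNA per oocyte or embryo and lengths of poly(A) tails were not measured here.

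Depth ran from 11.2 to 24.3 M reads in the transcriptomes and from 0.0102 to 43.2 M in the fractions. Oocyte markers (Zp3, Gdf9, Bmp15, Mos, Ooep) summed to between 15441 and 17221 CPM in GV oocytes and to between 39.8 and 53.7 CPM in 8C embryos. Of the cumulus and granulosa cell markers 3 of 9 were in the table and they summed to between 39.4 and 68.9 CPM from GV to zygote, nearly all of it Cyp19a1. Of the sperm markers 2 of 5 were in the table and they summed to at most 19.5 CPM. The part of such cells in any kinesin level was not tested.

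Mitotic kinesins were the larger share of kinesin RNA at every stage. Their summed level was 1991 ± 93.7 CPM in GV oocytes and 2919 ± 296 CPM in MII oocytes, 2124 ± 107 CPM in zygotes, 1215 ± 133 CPM in 2C and 1644 ± 173 CPM in 4C embryos, and 623 ± 56.6 CPM in blastocysts (SD, n = 4). The 4 MII libraries lay between 2605 and 3220 CPM, above all 4 zygote libraries, whose highest value was 2281 CPM. Transport kinesins summed to 599.6 ± 21.8 CPM in GV oocytes and 370 ± 45.0 CPM in blastocysts, and their lowest sum was that of 8C embryos, 330.1 ± 32.6 CPM. Of the 14 mitotic members 7 had their highest stage mean in MII oocytes, and of the 13 transport members 4 had it in blastocysts and 2 in MII oocytes.

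Levels were compared between genes only per kilobase of transcript. Kif23, the cytokinesis motor of the central spindle, stood at 318 CPM per kb in MII oocytes, above Kif18a, which dampens chromosome movement, at 143 CPM per kb and Kif20b, a midzone motor, at 80.2 CPM per kb. In GV oocytes Kif22, a chromosome arm motor, led with 185 CPM per kb, before Kif23 with 149.8 CPM per kb. Among transport kinesins Kif17, a motor known from dendrites and cilia, led in GV oocytes with 99.3 CPM per kb, Kif3a, a subunit of heterotrimeric kinesin-2, in MII oocytes with 69.0 CPM per kb, and Kif5b, the widely expressed conventional kinesin heavy chain, from the 4C stage with 24.6 CPM per kb to the blastocyst with 19.7 CPM per kb. Kif16b, an endosome motor, and Kif1b, a motor of mitochondria and vesicles, were the next transport members in blastocysts with 15.7 and 7.20 CPM per kb. In RefSeq's promoters Kif16bos starts on the plus strand and Kif16b on the minus strand of chromosome 2, pointing away from each other. The strand of counting is not given, and whether reads of the pair can be told apart was not tested. Of the 40 symbols 27 reached a stage mean of 10 CPM, and 8 stayed under 2 CPM at all stages.

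**Figure D1:**
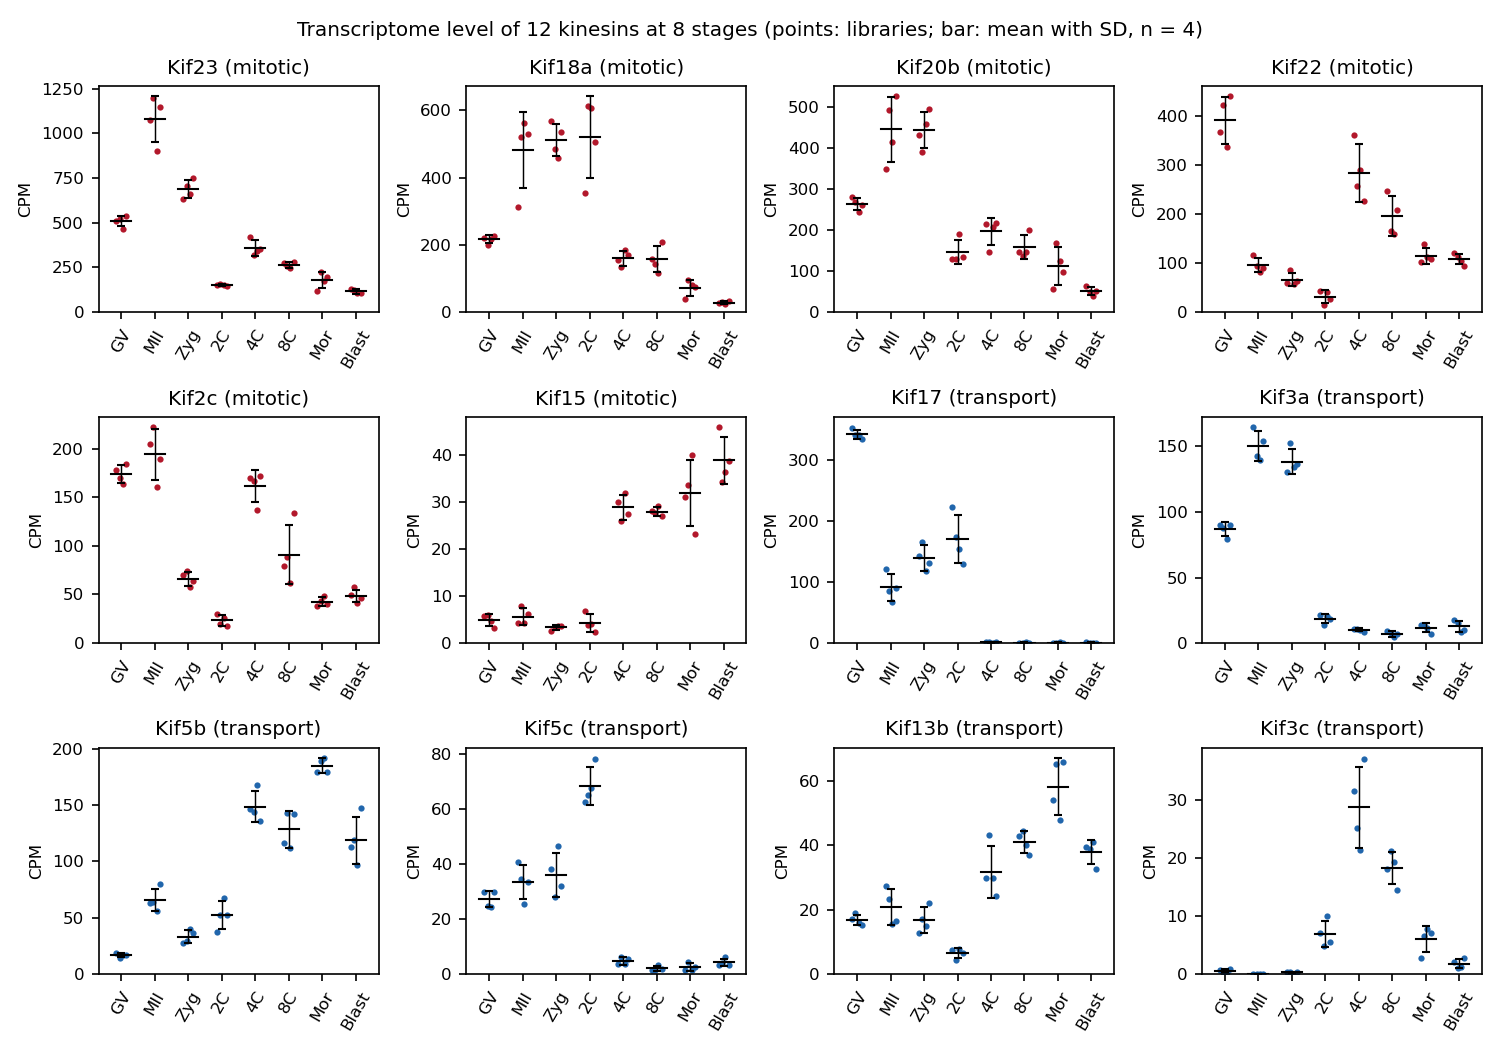
Transcriptome level in CPM (vertical axis, starting at 0) of 6 mitotic and 6 transport kinesins at 8 stages; points are the 4 libraries, bars the mean with SD. Kif23 was highest in MII oocytes at 1081 CPM, Kif22 had a second high level of 283 CPM in 4C embryos, and Kif17 was at 1.20 CPM in 4C embryos after 171 CPM in 2C embryos.

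Between GV and MII oocytes, when the first meiotic division takes place, the mitotic kinesins Kif11, Kif18a and Kif23 and the transport kinesins Kif5b and Kif1b rose, while Kif22, Kif18b, Kif17 and Kifc3 fell. A call needed a Benjamini-Hochberg adjusted p from limma below 0.05 together with a difference of 1 or more in log2(CPM + 1), a scale that shrinks differences between low values. Lack of overlap is described for members already called, and the share of all genes without overlap was not counted. Of the 37 kinesins that passed the filter on low values 6 rose and 5 fell, beside 9.11% and 25.3% (34.5% in all) of the 14642 genes tested. Their median change was 0.24, that of the 14 mitotic members 0.35 and that of all genes -0.11.

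Kif5b had 18.9, 14.6, 17.3 and 16.9 CPM in the GV libraries and 63.1, 64.0, 55.9 and 79.9 CPM in the MII libraries, a change of 1.89 ± 0.16 (SE; limma adjusted p = 9.8e-13). All MII libraries were above all GV libraries. Kif22 went the other way, with 368, 421.5, 335 and 439 CPM in GV and 116, 93.1, 82.3 and 90.5 CPM in MII oocytes. Its change was -2.03 ± 0.22 (limma adjusted p = 6.1e-10), and the groups did not overlap. Kif17 had 335 to 354 CPM in GV libraries and 67.6 to 121 CPM in MII libraries, a change of -1.93 ± 0.21 (limma adjusted p = 7.6e-10). Kif18a rose by 1.12 ± 0.21, Kif23 by 1.08 ± 0.14, Kif11, the tetrameric motor that pushes spindle poles apart, by 1.02 ± 0.16, and Kif1b by 1.26 ± 0.17. Kif18b, a microtubule plus-end motor, changed by -1.56 ± 0.24 and Kifc3, a minus-end-directed motor, by -1.52 ± 0.31. Among the other kinesins Kif21a rose by 1.06 ± 0.24 and Kif9, a motor of cilia and flagella, changed by -1.57 ± 0.28.

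Quantile normalization moved the median of all genes from -0.11 to 0.15 and the kinesin calls from 6 higher and 5 lower to 10 higher and 2 lower, and with it Kif18b, Kifc3, Kif9 and Kif23 were not called (changes of -0.77, -0.74, -0.78 and 0.93). Under edgeR on reads 13 were higher and 6 lower, and Kif11 lost its call at 0.97 without GV replicate B, 0.93 without MII replicate B and 0.97 without MII replicate D, as did Kif21a at 0.91 without MII replicate D.

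From the MII oocyte to the zygote, the step of fertilization, the calls among kinesins were all decreases of mitotic members. Kif2c, a microtubule depolymerase at centromeres, Kif20a, a cytokinesis motor, Kifc1, a minus-end-directed spindle motor, and Kif4, a chromosome arm motor, fell. These 4 were 4 of 14 mitotic kinesins, beside 4.48% of all genes called lower; 0 kinesins were called higher by limma, beside 5.79% of all genes, and 2 by edgeR (Kif3c and Kifc2). Across both directions 13 of the 37 kinesins had an unadjusted p under 0.05 with limma and 15 with edgeR. The share of all genes under that limit is not given, here or at later comparisons. These counts are therefore not read as a trait of kinesins.

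Kif2c had 205, 222, 160.5 and 189 CPM in MII libraries and 69.6, 73.8, 57.6 and 63.7 CPM in zygote libraries, with no overlap (change -1.54 ± 0.17, limma adjusted p = 1.3e-08). Kif20a went from 89.9 to 130 CPM down to 38.9 to 68.5 CPM, a change of -1.19 ± 0.28 (limma adjusted p = 0.0011). Kifc1 went from 6.26 ± 1.48 to 2.26 ± 0.65 CPM (SD, n = 4), a change of -1.15 ± 0.29. The coding sequences of Kifc1 and its copy Kifc5b were identical at 1984 of 2016 aligned bases (98.4%), so the split of reads between Kifc1 and Kifc5b is uncertain. Kifc5c-ps was not aligned with them, and whether it shares their reads was not tested. Kif4 changed by -1.01 ± 0.18, and its call was lost at -0.90 with quantile normalization, at -0.98 with edgeR and without MII replicates A, B or D or zygote replicate A (-0.99, -0.95, -0.98 and -0.94). Per kilobase of transcript, Kif23, Kif18a and Kif20b stood at 203, 152 and 79.9 CPM per kb in zygotes.

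Between the zygote and the 2C embryo several maternal kinesin transcripts fell while a few others rose. Kif23, Kif20b, Kif2c, Kif22 and Kif20a fell among the mitotic kinesins, and Kif3a and Kif13b, a motor of membrane cargo, among the transport kinesins. Kif2a, another microtubule depolymerase, Kif18b, Kif3c, an alternative kinesin-2 subunit, Kifc2, Kif13a, an endosome motor, and Kif9 rose. Of 37 kinesins 6 were called higher and 7 lower, beside 25.2% and 8.71% (33.9% in all) of the genes tested, and 5 of the 14 mitotic members were lower (median change -0.48, beside 0.37 for all genes).

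Kif23 had 635, 705.5, 660.5 and 752 CPM in zygotes and 150.3, 159, 151 and 144 CPM in 2C embryos, a change of -2.18 ± 0.14 (limma adjusted p = 5.5e-16). Kif3a had 130.2, 152, 134 and 137 CPM in zygotes and 21.5, 13.9, 20.8 and 18.3 CPM in 2C embryos, a change of -2.84 ± 0.21 (limma adjusted p = 3.5e-14). In both genes every 2C library was below every zygote library. Kif2a rose by 1.25 ± 0.18, from 46.6 ± 9.7 to 111.0 ± 16.4 CPM (SD, n = 4), its highest stage mean. Kif3c had at most 0.35 CPM in any zygote library and 7.12, 4.90, 10.1 and 5.52 CPM in 2C libraries, a change of 2.60 ± 0.24. Kifc2 had 0 to 0.30 CPM in zygote libraries and 1.00 to 3.76 CPM in 2C libraries.

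Kif20b changed by -1.61 ± 0.21, Kif2c by -1.50 ± 0.17, Kif22 by -1.16 ± 0.22, Kif20a by -1.08 ± 0.28, Kif13b by -1.23 ± 0.19, Kif18b by 1.27 ± 0.24, Kif13a by 1.10 ± 0.34 and Kif9 by 1.02 ± 0.28. The median of all genes went from 0.37 to -0.06 with quantile normalization and the kinesin calls from 6 higher and 7 lower to 3 higher and 11 lower (edgeR 3 and 10), with Kif13a, Kif9 and Kif18b then at 0.37, 0.25 and 0.60, and with edgeR Kif2a at 0.94, Kif13a at 0.86 and Kif9 at 0.92 were not called. Single libraries ended 4 calls: Kif20a was at -0.92 without zygote replicate B or 2C replicate F and -0.98 without 2C replicate H, Kif22 at -0.82 without 2C replicate F, Kif13a at 0.83 without zygote replicate B, and Kif9 at 0.93, 0.97 and 0.91 without zygote replicates B or D or 2C replicate G.

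From the 2C to the 4C embryo 21 of 37 kinesins were called, a smaller share than the 64.8% of all genes. Kif22, Kif2c, Kif15, a spindle motor that works beside Kif11, and Kif20a rose among the mitotic kinesins, and Kif14, a cytokinesis motor, Kif18a and Kif2a fell. Among transport kinesins Kif13b, Kif3c, Kif5b and Kifc2 rose while Kif17, Kif5c, a heavy chain known from neurons, and Kif3b, the partner of Kif3a, fell. Of the 37 kinesins 14 were called higher and 7 lower, beside 31.8% and 32.9% of the genes tested. Mitotic kinesins counted 9 higher and 3 lower of 14 (median 1.27, all genes 0.02) and transport kinesins 5 higher and 3 lower of 13 (median 0.51).

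Kif22 had 42.6, 13.6, 41.6 and 27.0 CPM in 2C embryos and 362, 256, 290.3 and 225 CPM in 4C embryos, a change of 3.25 ± 0.22 (limma adjusted p = 9.5e-16). Kif2c had 17.5 to 30.0 CPM in 2C and 137 to 172 CPM in 4C libraries, a change of 2.77 ± 0.17 (limma adjusted p = 1.1e-16). Kif15 had 6.80, 3.75, 3.98 and 2.28 CPM in 2C and 30.0, 26.1, 31.9 and 27.5 CPM in 4C embryos, a change of 2.58 (limma adjusted p = 3.0e-13), and its stage mean was 28.0 ± 0.89 CPM in 8C embryos and 38.8 ± 5.05 CPM in blastocysts (SD, n = 4). None of these 3, named for their large rises, overlapped between the stages.

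Kif17 had 224, 175, 155 and 130.3 CPM in 2C embryos and 1.24, 1.78, 0.86 and 0.91 CPM in 4C embryos, a change of -6.28 ± 0.21 (limma adjusted p = 1.6e-24), and stayed at a stage mean of at most 0.855 CPM from the 8C embryo on. Kif5c went from 68.4 ± 6.9 to 4.75 ± 1.32 CPM, a change of -3.62 ± 0.24, whereas its paralog Kif5b went from 52.4 ± 12.3 to 148.5 ± 13.9 CPM (SD, n = 4), a change of 1.51 ± 0.16. The 2 heavy chains thus moved in opposite directions, with every library of the later stage outside the range of the earlier one. Kif3c rose again by 1.92 ± 0.24 to 28.7 ± 7.0 CPM while Kif3b changed by -1.97 ± 0.26 to 3.84 ± 1.72 CPM.

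Kif13b changed by 2.12 ± 0.19, Kif20a by 1.82 ± 0.28, Kif14 by -1.92 ± 0.19 and Kif18a by -1.67 ± 0.21. The other called members lay between 1.04 and 1.48 (Kif11, Kifc5b, Kifc2, Kif4, Kif23, Kifc3 and Kif18b) or at -1.15 (Kif2a) and -1.06 (Kif26b). Kif23 and Kif26b were not called with quantile normalization (0.88 and -0.66), Kif18b was at 0.95 with edgeR, which called 14 higher and 11 lower, and at 0.90 and 0.96 without 2C replicate F or 4C replicate B, and Kifc3 at 0.94, 0.82 and 0.89 without 2C replicate F or 4C replicates B or C. Partner genes of mitotic kinesins, a list of 11 that includes the Kif23 partner Racgap1 (2.01 ± 0.15), the chromosomal passenger Incenp (2.09 ± 0.20) and the kinetochore kinesin Cenpe (1.83 ± 0.13), counted 6 higher and 0 lower with limma (median 1.02), beside 31.8% and 32.9% of all genes. Of 10 cargo partner genes tested 2 were higher and 1 lower, below those shares of all genes: higher were the light chain gene Klc4 (2.65 ± 0.21) and the kinesin-2 accessory gene Kifap3 (2.56 ± 0.25), and lower was the mitochondrial adaptor Trak1 (-1.48 ± 0.24).

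The promoters of the mitotic kinesins are shown because 9 of the 14 rose at this step. RefSeq promoters (GRCm38.p6, 250 bases before to 50 bases after the start) were found for 13 mitotic and 9 transport kinesins. The letters TTTGAA, the cell cycle genes homology region known from promoters of genes of late cell cycle, stood on either strand in 11 of 13 mitotic promoters, in 0 of 9 transport promoters and in 20.2% of 27025 genes with a promoter. The letters CCAAT, the box bound by NF-Y, stood in 8 of 13, 3 of 9 and 41.1%, and both together in 8 of 13, 0 of 9 and 7.97%. From 40 bases before to 50 bases after the start TTTGAA or its complement was found in 9 of 13 mitotic promoters and 5.1% of all genes. Neither motif contains the other, though adjoining sites can share an outer base. Those of the 4 with the largest rise from 2C to 4C among the mitotic kinesins with a RefSeq promoter are printed as the 120 bases before the start, with matches of either motif in capitals (TTCAAA and ATTGG are the complements). They lie at chr7:127042421-127042540 on the minus strand (Kif22), chr4:117178773-117178892 on the minus strand (Kif2c), chr19:37376262-37376381 on the plus strand (Kif11) and chr9:122950961-122951080 on the plus strand (Kif15).
Kif22: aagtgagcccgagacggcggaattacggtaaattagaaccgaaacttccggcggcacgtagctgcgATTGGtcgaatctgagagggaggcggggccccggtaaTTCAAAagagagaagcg
Kif2c: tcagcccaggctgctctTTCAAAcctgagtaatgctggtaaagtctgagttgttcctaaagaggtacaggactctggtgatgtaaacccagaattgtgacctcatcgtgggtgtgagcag
Kif11: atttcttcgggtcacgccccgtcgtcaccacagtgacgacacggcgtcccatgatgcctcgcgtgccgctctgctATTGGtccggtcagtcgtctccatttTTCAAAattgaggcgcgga
Kif15: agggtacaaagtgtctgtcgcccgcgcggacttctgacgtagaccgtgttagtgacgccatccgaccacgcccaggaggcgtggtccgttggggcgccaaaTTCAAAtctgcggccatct
In Kif22, Kif11 and Kif15 a TTCAAA begins 17 to 19 bases before the start, and in Kif22 and Kif11 an ATTGG stands before it. Kif2c, the second largest rise, has its only TTCAAA 103 bases before the start and none near it. The matches describe these letters in RefSeq's promoters and are not measured sites. Of the 9 mitotic kinesins that rose at this step 8 had a promoter in the table, and 7 of these, all but Kif2c, had the letters from 40 bases before to 50 bases after the start. Of the 3 that fell 0 had them there: Kif18a and Kif2a had no TTTGAA in the window and Kif14 had one further from the start. Kif20b and Kifc1, the mitotic members that limma did not call at this step, had the letters there too. The shares among all genes that rose or fell were not counted.

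Kinesin transcripts changed little from the 4C to the 8C embryo. By limma 0 of 37 were called, beside 2.6% of all genes, and 12 had an unadjusted p under 0.05. EdgeR called 2 lower, Kif5c and Kif3b, of 9 with p under 0.05. Kif2a, with 49.1 ± 2.4 CPM in 4C and 25.1 ± 3.5 CPM in 8C embryos (SD, n = 4), changed by -0.95 ± 0.18, short of the limit of 1. Leaving out 1 library gave between 0 and 2 calls.

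From the 8C embryo to the morula Kif18a, Kif2c and Kif3c fell and no kinesin was called higher, beside 3.7% of all genes lower and 8.18% higher. By edgeR 1 was higher (Kif21a) and 3 were lower, and 18 kinesins had an unadjusted limma p under 0.05. Kif18a had 157, 144, 116 and 209 CPM in 8C embryos and 37.5, 95.6, 81.2 and 73.7 CPM in morulae, with no overlap (change -1.16 ± 0.21). Kif2c changed by -1.03 ± 0.17 and Kif3c by -1.52 ± 0.24. Kif18a was at -0.87 without morula replicate A, and Kif2c at -0.97 without it and at -0.82 without 8C replicate D.

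In blastocysts, the first stage with an epithelium and an inner cell mass, Kif21b, Kif3b, Kif13a and Kif1c, a Golgi and vesicle motor, were higher than in morulae, and Kif3c, Kif18a and Kif20b were lower. These 4 and 3 calls of 37 stand beside 18.8% and 7.97% of all genes. Kif3b had 5.37, 2.97, 1.69 and 1.59 CPM in morulae and 14.1, 9.24, 8.93 and 13.1 CPM in blastocysts, with no overlap and a change of 1.73 ± 0.26 (limma adjusted p = 1.3e-06). Kif21b, which also slows microtubule growth, had 10.3 to 11.8 CPM in blastocysts after 1.42 to 2.84 CPM in morulae, a change of 1.96 ± 0.27. Kif18a reached its lowest stage mean, 28.3 ± 4.3 CPM (SD, n = 4), a change of -1.25 ± 0.21.

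Kif13a changed by 1.23 ± 0.34, Kif1c by 1.19 ± 0.25, Kif3c by -1.31 ± 0.24 and Kif20b by -1.03 ± 0.21. With quantile normalization the calls were 2 higher and 4 lower (Kif1c 0.70, Kif13a 0.81) while the median of all genes went from 0.16 to -0.00074; with edgeR they were 3 higher and 5 lower (Kif1c 0.99, adjusted p = 0.11). Kif20b was at -0.80, -0.95 and -0.92 without morula replicates B or C or blastocyst replicate C, and Kif1c at 0.86 without morula replicate B.

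The gradients place each transcript by how far it sedimented, which rises with the number of ribosomes it carries. The labels number the fractions only, so fractions 1 to 5 were taken as light and 6 to 10 as heavy by convention, and the CPM of each side was averaged per gradient. Each fraction is scaled to its own reads, so the values show a share of that fraction's RNA and not an amount. Each stage had its own fit because the spread between gradients differed strongly from stage to stage.

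In MII oocytes more kinesin transcripts were called heavy than light, among them 8 of the 14 mitotic members. Kif20b, Kif14, Kif11, Kif20a, Kif18a and Kif23 were higher in heavy than in light fractions, together with the transport kinesins Kif13a, Kif5c, Kif1b and Kif3a, and Kif22 and Kif17 were higher in light fractions. Of 29 kinesins tested 12 were called heavy and 2 light, beside 12.7% and 6.81% of 11314 genes. Mitotic members counted 8 heavy and 1 light of 14 (median difference 1.38, all genes -0.07) and transport members 4 heavy and 1 light of 12 (median 0.99).

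Kif20b had 134, 61.0 and 89.5 CPM in the heavy fractions of gradients A, B and C and 1.39, 1.64 and 1.48 CPM in their light fractions, a difference of 5.19 ± 0.44 (SE; limma adjusted p = 3.8e-05). In gradient A it was at most 3.91 CPM in fractions 1 to 6 and 36.2, 364, 212 and 57.9 CPM in fractions 7 to 10, and the other gradients had the same form, with 5.91 CPM the highest value of any gradient before fraction 7. Its mean over gradients was 190 CPM in fraction 8 and 184 CPM in fraction 9.

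Kif14 had 225, 146 and 112 CPM in heavy and 32.7, 19.0 and 7.72 CPM in light fractions, a difference of 3.11 ± 0.47 (limma adjusted p = 0.0010). Kif11 had 53.7, 25.7 and 57.7 CPM in heavy and 4.08, 2.91 and 5.91 CPM in light fractions, a difference of 3.10 ± 0.47 (limma adjusted p = 0.0011). In these genes, as in Kif18a (2.40 ± 0.45), Kif23 (2.16 ± 0.39) and Kif20a (2.46 ± 0.55), the heavy and light values did not overlap. Kif2c (1.26 ± 0.27) and Kif4 (1.33 ± 0.42) were heavy too, and in Kif4 the lowest heavy value, 41.2 CPM, lay under the highest light value, 41.8 CPM. Kif23 increased along the gradient to a mean of 587 CPM in fraction 10, and Kif20a had its highest mean, 275 CPM, in the same fraction, with 605 CPM in gradient B and 0.32 CPM in gradient A.

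**Figure D2:**
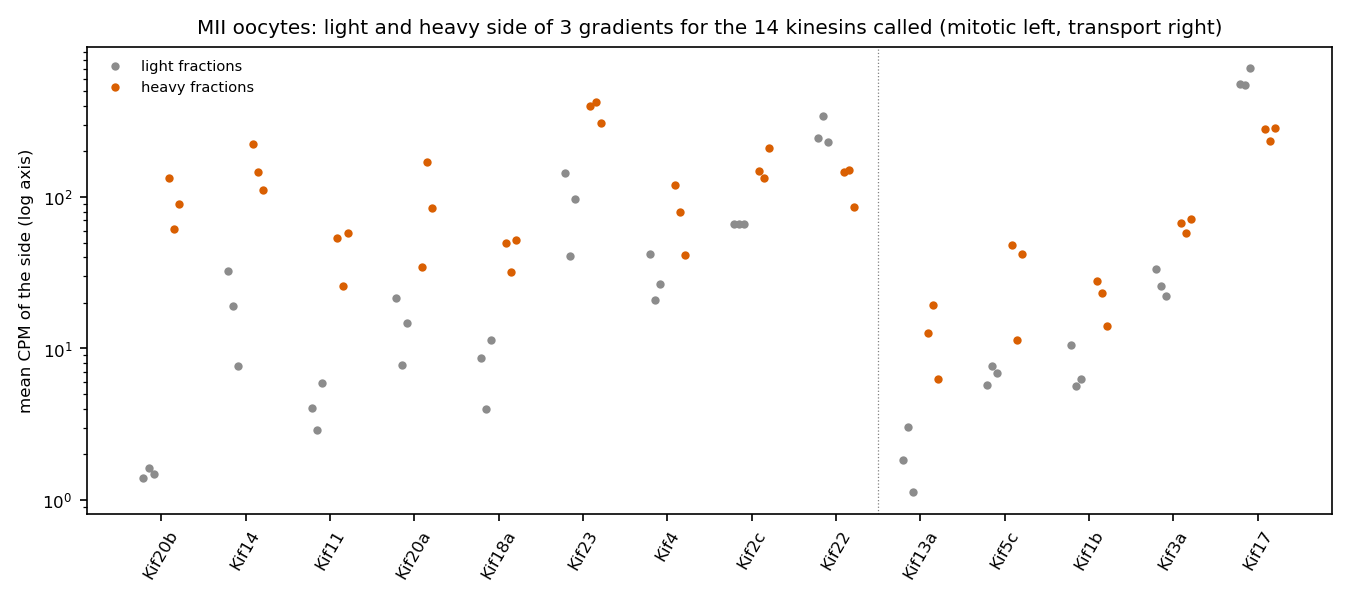
Mean CPM of the light fractions 1 to 5 (grey) and the heavy fractions 6 to 10 (orange) in the 3 MII gradients, on a log axis, for the 14 kinesins called; mitotic kinesins stand left of the dotted line. Kif20b has the widest gap, 61.0 to 134 CPM against 1.39 to 1.64 CPM, and Kif22 and Kif17 are reversed.

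The transport kinesin Kif17 was the opposite case, with 279.5, 234 and 284 CPM in heavy and 557, 548 and 707 CPM in light fractions (difference -1.18 ± 0.23, limma adjusted p = 0.0038). Its mean was highest in fraction 2, at 1070 CPM, and 193 CPM in fraction 10. Kif22 had 147, 151 and 85.4 CPM in heavy and 245, 340.3 and 229 CPM in light fractions (-1.10 ± 0.29) with its highest mean, 469 CPM, in fraction 3. Kif13a (2.12 ± 0.55), Kif5c (1.94 ± 0.54), Kif1b (1.42 ± 0.46) and Kif3a (1.26 ± 0.32) were heavy, and Kif3a had 67.7, 57.5 and 71.4 CPM against 33.5, 25.7 and 22.3 CPM.

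With the gradient letter as a replicate block Kif5b (1.90, limma adjusted p = 0.016) was called too, which made 15. A fit that shared 1 spread over all stages called only Kif20b of these 14 (limma adjusted p = 0.078 for Kif14 and 0.086 for Kif11), and leaving out 1 gradient left 8 to 11 calls: Kif20a, Kif3a, Kif13a, Kif5c, Kif2c, Kif22, Kif4 and Kif1b each lost theirs without at least 1 of gradients A, B and C (limma adjusted p from 0.055 to 0.30), and Kif3a was at 0.98 and Kif2c at 0.99 without fraction 1.

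The last bases of the transcripts are shown because cytoplasmic polyadenylation elements near the 3′ end are a known feature of RNAs translated in maturing oocytes. The letters TTTTAT or TTTTAAT were searched on the sense strand in the last 150 bases of 1 GENCODE M21 (GRCm38) transcript per gene. They were found in 5 of the 11 heavy kinesins that could be searched (Kif11, Kif14, Kif18a, Kif20b and Kif2c), in 3 of 14 tested and not called (Kifc1, Kifc5b and Kif5b), in 7 of 13 mitotic and 1 of 11 transport kinesins, and in 24.5% of 11870 genes. The called genes Kif22, Kif17 and Kif3a had 3′ untranslated ends shorter than the window. The windows below are 30 bases, 5′ to 3′, with the element in capitals.
Kif20b: cttgtatataaTTTTAATtcaataaatata
Kif11: aattttttaaattaaattaTTTTAATtttt
Kif18a: aatgtgctaataTTTTATtacttggtatat
Kif14: tatgaatggtaTTTTATgatgtaaagttta
Kif2c: aagcactcatgaTTTTATactttcagaaaa
Kifc1: gttgagacatgaTTTTATtgggtgaacaat
The element begins 28 bases from the transcript end in Kif20b, 11 in Kif11 and 37 in Kif18a, and 139 in Kif14 and 134 in Kif2c. Kifc1, which holds it 71 bases from the end, had a heavy minus light difference of -0.16 and was not called. Kif23, Kif20a and Kif4 and the transport kinesins Kif13a, Kif5c and Kif1b were heavy without these letters in the window.

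In zygotes 5 mitotic kinesins and 1 transport kinesin were called heavy. Kif20a, Kif20b, Kif18a, Kif14 and Kif23, each called in MII oocytes as well, and Kif5b were higher in heavy fractions, and Kif17 and Kif26b were higher in light fractions. That was 6 heavy and 2 light of 31 tested, beside 13.2% and 5.23% of 11323 genes. The 5 heavy mitotic members of 14 came with a median difference of 1.62, beside -0.05 for all genes. The chromosome arm motors Kif4 (1.57 ± 0.56, limma adjusted p = 0.074) and Kif22 (-0.96 ± 0.26, limma adjusted p = 0.026) were not called.

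Kif20a had 144, 46.6 and 170.2 CPM in the heavy fractions of gradients A, B and C and 5.36, 3.11 and 4.07 CPM in the light fractions, a difference of 4.37 ± 0.51 (limma adjusted p = 0.00041). Its mean was 290 CPM in fraction 9 and at most 9.28 CPM in fractions 1 to 5. Kif20b had 37.5, 27.9 and 33.8 CPM in heavy and 0.77, 1.80 and 2.65 CPM in light fractions, a difference of 3.69 ± 0.49. Kif18a (3.19 ± 0.50), Kif14 (3.04 ± 0.38), Kif5b (2.43 ± 0.48) and Kif23 (1.79 ± 0.27) did not overlap between the sides either. Kif17 had 740, 884 and 471 CPM in heavy and 1622, 1726 and 1355 CPM in light fractions (-1.21 ± 0.26). Kif26b had 5.00, 1.77 and 6.36 CPM in light fractions and at most 0.011 CPM in heavy fractions. It passed the filter on low values only through the light side, so its call is not independent of that filter.

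Under the replicate block Kif3a (1.03, limma adjusted p = 0.046) and Kif4 (1.57, limma adjusted p = 0.023) were called as well, which made 10, and the fit with 1 spread over all stages called only Kif26b. Leaving out 1 gradient left 8 or 9 calls, and Kif17 lost its call without gradient A (-1.24, limma adjusted p = 0.069). Kif26b was not tested without gradient A, B or C, since with 1 gradient fewer it no longer passed the filter on low values, and was not tested with fractions 7 to 10 against 1 to 4 either. Kif22 was called light with quantile normalization (-1.02), without fraction 1 (-1.16) and with edgeR (-1.14).

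**Figure D3:**
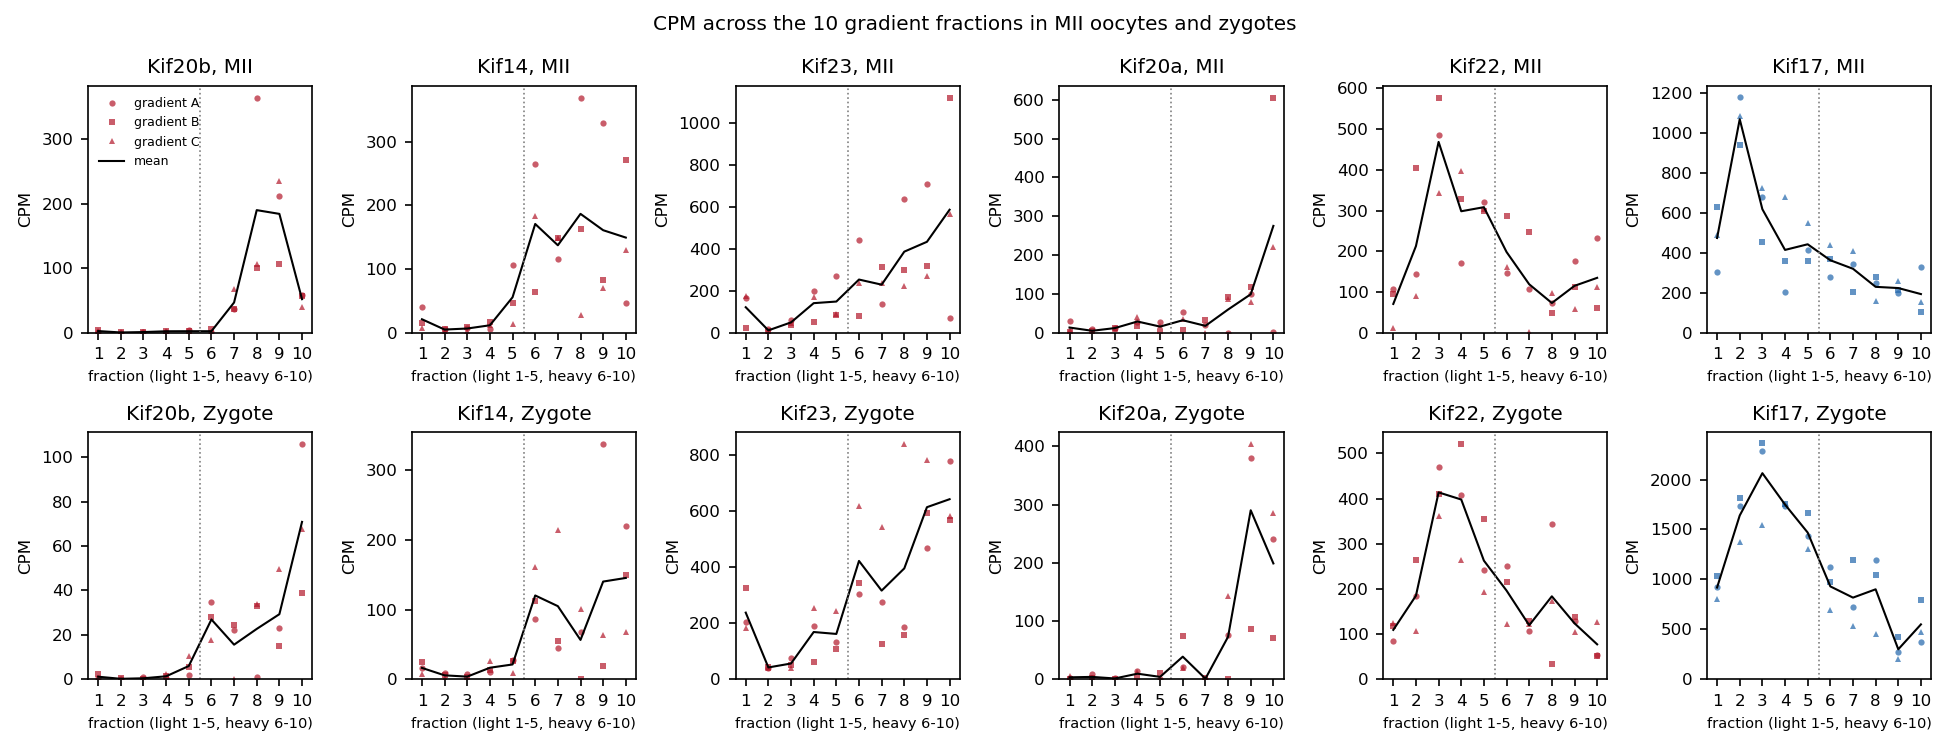
CPM (vertical axis, from 0) in fractions 1 to 10 (horizontal axis) in MII oocytes (upper row) and zygotes (lower row) for 4 heavy kinesins, Kif22 and Kif17; symbols are gradients, the line their mean, and the dotted line parts light from heavy. Kif20b was near 0 before fraction 7 in MII oocytes, and Kif17 peaked in fraction 2 in MII oocytes and fraction 3 in zygotes.

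In GV oocytes only the kinesin-2 subunit Kif3a was called, with 59.2, 46.2 and 53.0 CPM in heavy and 18.2, 18.2 and 15.9 CPM in light fractions (1.54 ± 0.33, limma adjusted p = 0.041). This 1 heavy kinesin of 28 tested stands beside 1.88% of 11644 genes called heavy and 0.567% called light. Fraction 1 of GV gradients A and B held 0.0102 and 0.0231 M reads, of which kinesins had 33 and 50 reads in all. For Kif20b the 191 CPM of gradient A in that fraction came from 2 reads, while fractions 2 to 5 held at most 22.8 CPM and fraction 10 held 66.1, 100.4 and 95.4 CPM in the 3 gradients. Without fraction 1, 9 kinesins were called, 8 of them heavy: Kif20b (3.20), Kif14 (2.32), Kif23 (2.24), Kif18a (2.19), Kif4 (2.14), Kif2a (1.52), Kif2c (1.04) and Kif3a, with Kif17 (-1.01) light. With edgeR, which weighs libraries by depth, 6 were heavy and 1 light. Kif3a itself lost its call when any 1 gradient was left out (1.49, 1.66 and 1.48 without A, B and C, limma adjusted p from 0.13 to 0.25) and with quantile normalization (1.28, limma adjusted p = 0.075).

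In 2C, 4C and 8C embryos limma called 0 kinesins of 28, 26 and 26 tested, and edgeR called 0 as well. Of all genes 1.9%, 0% and 2.55% were called. The unadjusted limma p was under 0.05 for 10, 4 and 3 kinesins (edgeR 10, 0 and 3), counts given without the share of all genes. The gradients differed widely: Kif1b in 2C embryos had 232.5, 95.6 and 99.8 CPM in heavy and 0.15, 8.17 and 99.0 CPM in light fractions. With the replicate block Kif17 was called light in 2C embryos (-1.54, limma adjusted p = 0.023), beside 1.09% of all genes without the block; it had 318.5, 637 and 452 CPM in heavy and 934.5, 1654 and 1461 CPM in light fractions. Kif2a and Kif24, a motor that limits cilia, were not called but were lower in the heavy fractions of all 3 gradients in both 4C and 8C embryos. The median difference of all genes was -0.69 in 4C and 0.07 in 8C embryos. The share of all genes lower in all 3 gradients was not counted. Kif24 had 0.75, 2.18 and 0.37 CPM in heavy and 46.0, 24.5 and 14.5 CPM in light fractions of 4C embryos, a difference of -3.75 ± 1.22 (limma adjusted p = 0.23). Kif2a had 0.36, 2.52 and 0.93 CPM in heavy and 24.7, 22.2 and 62.3 CPM in light fractions there (limma adjusted p = 0.23). In simulated 4C gradients the test recovered 0% of 8-fold differences, and larger ones were not simulated.

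In morulae Kif24 (8.31, 6.67 and 10.1 CPM in light, at most 0.11 CPM in heavy fractions) and Kif6, a ciliary kinesin (4.10, 3.17 and 1.31 CPM in light, at most 0.015 CPM in heavy fractions), were called light and Kif3c heavy (2.01 ± 0.60). These were 1 heavy and 2 light of 29 tested, beside 8.26% and 6.43% of 10962 genes. Kif24 and Kif6 passed the filter on low values only through the light side, so their calls are not independent of that filter. EdgeR called 0 kinesins (5 at an unadjusted p under 0.05), quantile normalization 1 heavy and 1 light, and the fit without fraction 1 called 0 of the 25 kinesins it tested (Kif3c 1.75, limma adjusted p = 0.097). Kif3c was not called without gradient A, B or C (1.63, 2.32 and 2.07), and Kif6 lost its call under the replicate block. Kif24 and Kif6 could not be tested without gradient A, B or C, since 2 light means remained and the filter asks for 3. Leaving out a gradient therefore says nothing about these 2 calls. Without fraction 1 they did not pass the filter either. That fraction held only 0.782, 0.727 and 0.418 M reads in morula gradients A, B and C. There 1 read stands for 1.09, 1.26 and 2.15 CPM, so the light means of Kif24 and Kif6 may rest on few reads. How many reads carry them was not counted.

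In blastocysts mitotic kinesins stood on both sides. Kif11, Kif4, Kif2a and Kif2c were higher in light fractions and Kif20a and Kif22 in heavy fractions, 2 heavy and 4 light of 29 tested, beside 9.96% and 11.8% of 11130 genes, which is near the share of all genes. Kif11 had 0.90, 0.42 and 5.24 CPM in heavy and 9.44, 9.99 and 14.99 CPM in light fractions (-2.26 ± 0.55, limma adjusted p = 0.011), on the other side than in MII oocytes. Kif22 had 76.5, 172 and 153 CPM in heavy and 57.3, 71.6 and 59.0 CPM in light fractions (1.01 ± 0.30, limma adjusted p = 0.026), and its highest mean, 241 CPM, was in fraction 10. Kif20a (1.80 ± 0.51), Kif4 (-1.81 ± 0.59), Kif2a (-1.64 ± 0.46) and Kif2c (-1.57 ± 0.37) did not overlap between the sides. Each of the 6 lost its call when 1 of gradients A, B or C was left out, which left 1 or 2 calls (limma adjusted p of the lost calls from 0.059 to 0.21), and edgeR kept 1.

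**Figure D4:**
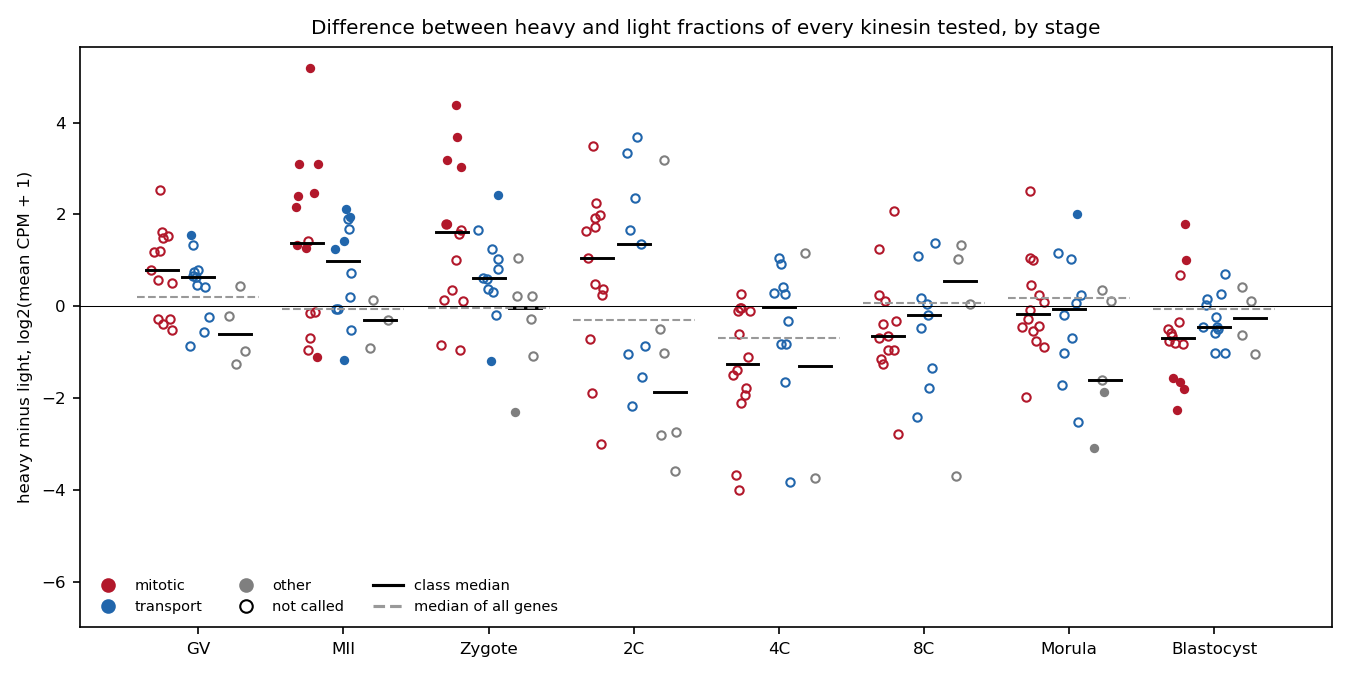
Heavy minus light difference on the log2(mean CPM + 1) scale (vertical axis) for every kinesin tested at each stage; filled points were called, black bars are class medians and dashed lines the median of all genes. Mitotic medians were 1.38 in MII oocytes and 1.62 in zygotes and -0.70 in blastocysts.

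Whether a kinesin moved between light and heavy fractions from 1 stage to the next was tested on the difference per gradient. Limma called 0 kinesins and 0 genes at all 7 steps. Between 1 and 6 kinesins per step had an unadjusted p under 0.05. From GV to MII oocytes these were Kif14 (2.60 ± 0.78, limma adjusted p = 0.21), Kif13a (1.71 ± 0.46, limma adjusted p = 0.18) and Kif16b (-0.98 ± 0.40, limma adjusted p = 0.30). The contrast between the MII and the GV pattern, or between the MII and the blastocyst pattern of Kif11, is therefore not shown to be a difference between stages. In simulated data this test recovered 0% of 8-fold shifts. Both stages were drawn there from the means, spread and depths of MII gradients, so the shallow fraction 1 of GV gradients was not part of it. The test of heavy against light fractions in simulated MII gradients recovered 0% of 2-fold, 28.4% of 4-fold and 72.7% of 8-fold differences. A fit with 1 spread over all stages called 8 kinesins from 2C to 4C and 2 from zygote to 2C.

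A mean gradient position, the fraction number weighted by CPM over fractions 2 to 10, describes the same profiles across stages. Fraction 1 was left out of it after its depth was seen. Kif20b lay at 8.32 ± 0.11 in GV oocytes, 8.47 ± 0.06 in MII oocytes and 8.41 ± 0.41 in zygotes (SD, n = 3), past 98.6% or more of the genes at each of these stages. Kif23 lay at 7.94 ± 0.14, 7.82 ± 0.73 and 7.71 ± 0.22. The median of the mitotic kinesins was 7.19, 7.61 and 7.63 at these stages, beside 6.20, 5.95 and 6.03 for all genes, and that of the transport kinesins 6.40, 6.75 and 6.57. In blastocysts the mitotic median was 5.46 beside 5.94 for all genes.

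Levels in the fractions and in the transcriptomes did not rank the kinesins alike. Kif17 averaged 1133 CPM over the fractions of zygotes and 140 CPM in their transcriptomes, and Kif18b 119 and 4.33 CPM. Kifc1 averaged 79.5 CPM over GV fractions and 4.36 CPM in GV transcriptomes, and Kifc3 175 and 12.9 CPM. Kif20b was lower in the fractions with 17.4 and 444.8 CPM in zygotes, as was Kif18a with 34.0 and 512 CPM. The median log2 ratio of fraction to transcriptome level was negative for kinesins at every stage, from -0.18 in zygotes to -2.20 in blastocysts. That of all genes lay between -0.30 in blastocysts and 0.26 in zygotes. Genes under 1 CPM in either kind of library were left out of these medians. The Pearson correlation of this log2 ratio with log2 transcript length ran from -0.37 in blastocysts to 0.10 in 2C embryos for kinesins. For all genes it ran from -0.40 in blastocysts to -0.02 in 2C embryos. Fractions and transcriptomes are different preparations scaled to different totals, and the cause of the difference between these kinds of library was not tested.

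Kinesin partners and the opposing motor dynein were counted in the same fits. Partners of mitotic kinesins were heavy in 6 of 11 in MII oocytes (median 1.67) and in 6 of 11 in zygotes (median 1.498), with none light by limma, beside 12.7% and 13.2% of all genes heavy, led in MII oocytes by Cenpe (5.26 ± 0.31), the midzone bundler Prc1 (3.10 ± 0.32) and Hmmr (2.21 ± 0.55). Cargo partners of kinesin counted 0 called of 8 in MII oocytes and 0 of 7 in zygotes. Dynein and dynactin genes counted 1 heavy and 5 light of 20 in MII oocytes, beside 12.7% and 6.81% of all genes, with Dynlt3 at 2.07 ± 0.54 and Dctn2 at -1.47 ± 0.32. In the transcriptome from GV to MII oocytes dynein and dynactin counted 1 higher and 8 lower of 22 (median -0.64), beside 9.11% and 25.3% of all genes, with the light chain genes Dynlrb1 and Dynll1 at -3.94 ± 0.14 and -3.81 ± 0.13.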

How the data were processed

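Gene counts of 32 transcriptome and 240 gradient fraction libraries were deposited by the authors as CPM in 1 table. Per the submitters' processing notes the tools were Trim Galore 0.6.7, FastQC, HISAT2 2.2.1, featureCounts 2.0.1 and edgeR with build GRCm39. Their settings, the annotation and the strand of counting are not given in the sources used here. Per the labels' protocols, lysates in cycloheximide were spun through sucrose and libraries were made from poly(A) RNA with a Smart-seq kit. In 9 deposited columns the values summed to more than a CPM total can and were recorded as signal; with 1 row kept of each of 76 groups of identical rows every column summed to less than that total. Whole reads were recovered from 239 of 240 fractions and all 32 transcriptomes (tolerance 0.05 reads), for depth and for edgeR.

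Limma 3.58.1 (R 4.3.3) was fitted on log2(CPM + 1) over all genes with CPM of at least 1 in as many libraries as a group holds, in 1 fit for transcriptomes and 1 per stage for the means of heavy and light fractions. The named kinesins are, per comparison, the called members with the largest change (up to 6 mitotic, 6 transport and 4 other) and the 3 highest of each class per stage. The members and lists were chosen with earlier results of these data known. The fits were tested on simulated data with known changes. Alternatives were another pseudocount, no filter, quantile normalization, edgeR 4.0.16 on reads, 1 fit over all stages, other fraction limits, a replicate block and leaving out each library. No pair of replicates agreed within counting noise (lowest chi-square per degree of freedom 2.55 over 286 pairs).

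Heavy and light fractions of a letter were taken as 1 gradient. Their deviations correlated above 0.1 in every pair in GV oocytes, MII oocytes and blastocysts, and at every stage each correlated best with its own letter. Transcriptome letters reached this limit in every pair at no step and were not taken as pairs. Depth limits rare transcripts most in fraction 1 of GV gradients A and B. Fraction 1 was shallow in embryos too, with 0.337, 0.427 and 0.667 M reads in 2C gradients A, B and C. It held 0.141, 0.347 and 0.282 M reads in 4C gradients and 0.274, 0.396 and 0.184 M reads in 8C gradients. In morula gradients it held 0.782, 0.727 and 0.418 M reads.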

Additional observations from a re-analysis of the deposited data

Results flagged for a closer look

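In 4 of 86 groups of 4 transcriptome libraries 1 library stood far from the other 3, and chance alone flags about 1 group in 20. Kif18a had 313.7 CPM in 1 MII library, below the 522.2 to 564.0 CPM of the others. Kif20b had 191.6 CPM in 1 library of 2C embryos, above 129.6 to 135.6 CPM. Kif2c had 137.2 CPM in 1 library of 4C embryos, below 166.7 to 171.8 CPM. The summed level of transport kinesins was 378.4 CPM in 1 library of 8C embryos, above 308.8 to 320.6 CPM.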

How the results depend on the processing

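Of the 59 transcriptome calls 35 were tested and called under every alternative run, and of the 32 calls between heavy and light fractions 1 was, Kif20b in MII oocytes. Kif26b in zygotes kept its call wherever it was tested but did not pass the filter on low values under 4 alternatives. Neither did Kif24 and Kif6 in morulae, under 4 each, Kif11 in blastocysts without gradient C, nor in the transcriptomes Kifc2 (zygote to 2C) and Kifc5b (2C to 4C) under 1 each and Kif26b (2C to 4C) under 4. Leaving out 1 gradient leaves 2 libraries a side while the filter still asks for 3. No result reversed its direction. The cause of the changes below was not tested.

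In transcriptomes edgeR called 19 kinesins from GV to MII and 2 from 4C to 8C, where a pseudocount of 0.1 also called 2. Leaving out 1 library gave 3 to 7 calls from MII to zygote, 0 to 2 from 4C to 8C and 1 to 5 from 8C to morula. Between heavy and light fractions of GV oocytes 0 were called with no filter, with quantile normalization, with all stages in 1 fit and without any 1 gradient, 2 with fractions 7 to 10 against 1 to 4, 9 without fraction 1 and 7 with edgeR. In MII oocytes 8 were called with no filter, 1 with all stages in 1 fit and 8 to 11 without 1 gradient, and in zygotes 1 with all stages in 1 fit. In 2C embryos the pseudocount of 0.1 and fractions 7 to 10 gave 2 each, all stages 11, and leaving out fraction 1 and the replicate block 1 each. All stages in 1 fit gave 6 in 4C and 3 in 8C embryos, and fractions 7 to 10 gave 1 in 8C embryos. In morulae all stages gave 1, edgeR and the fit without fraction 1 gave 0, and leaving out 1 gradient 0 to 1. In blastocysts no filter, edgeR and leaving out fraction 1 gave 1 each, quantile normalization 3, all stages 0 and leaving out 1 gradient 1 to 2. The shift test with all stages in 1 fit called 2 from zygote to 2C and 8 from 2C to 4C.

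Quantile normalization moved the median of all genes from 0.02 to 0.20 from 2C to 4C, and between heavy and light fractions from 0.20 to -0.04 in GV oocytes, -0.05 to -0.20 in zygotes, -0.30 to -0.09 in 2C and -0.69 to -0.04 in 4C embryos. With the letter as a replicate block each step of the transcriptomes that could be fitted kept its count of calls, 11 between GV and MII oocytes, 4 up to the zygote, 0 between 4C and 8C embryos, 3 up to the morula and 7 up to the blastocyst. No paired analysis was possible from zygote to 2C and 2C to 4C because the 2C letters match no other stage. From 4C to 8C each of the 4 letters correlated best with its own, as a hint from the data, and at the other steps 0 or 1 did. In gradients the block gave 15 calls in MII oocytes, 10 in zygotes, 1 in 2C embryos and 2 in morulae, and the other counts of calls were those without it.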
